A study of Mus musculus with 12 samples.

Results

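The response to dietary acetate that PBS-injected and tau-injected mice had in common was measured by comparing the right dorsal hippocampus of all 6 mice on an acetate diet with that of all 6 mice on a control diet, with the injection as a covariate. These 12 mice are the whole series. A gene counted as shared when it passed the test over both injections at an adjusted p below 0.1 and its estimate had the same sign in PBS-injected and in tau-injected mice. Of 14742 genes tested, 613 met this rule.

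The mice were wild-type C57Bl6/J animals, 6 months old at surgery, in 4 groups of 3. PBS-control and PBS-acetate mice received PBS, and Tau-control and Tau-acetate mice received 1 µg of AD tau, a sarkosyl-insoluble tau preparation from the frontal cortex of people with Alzheimer's disease, as a single injection into the right dorsal hippocampus. The acetate groups then ate LabDiet 5001 with 5% sodium acetate and the control groups a calorically equivalent diet, so that sodium and acetate cannot be told apart. The injected hippocampus was collected a day after a remote memory recall test, so all 4 groups also share surgery, training and recall.

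Acetate is taken up by cells and joined to coenzyme A by acyl-CoA synthetases such as ACSS2, which works in the cytosol and nucleus of neurons. The resulting acetyl-CoA feeds lipid synthesis and energy metabolism and is the donor for histone acetylation, a mark of active genes. In the hippocampus this route has been tied to the expression of neuronal genes during memory formation.

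The libraries held 12983233 to 20218340 counts each over 24985 genes. Levels are given below as CPM, the count of a gene scaled to its library's total, with TMM factors of 0.990 to 1.01. The labels give the mice as male, yet Xist, which female cells make from their inactive X, stood at 920 to 1340 CPM in all 12 libraries, and 8 Y-linked genes had 0 counts, which allows up to 0.231 CPM a gene in the smallest library (3 counts, counting error only). Markers of hippocampal excitatory neurons were abundant in every mouse, with Slc17a7 (the vesicular glutamate transporter VGLUT1) at 1368 to 1750 CPM and Neurod6 (a transcription factor of pyramidal cells) at 238 to 352 CPM. Both genes were called lower on acetate, as given below, so these levels only identify the tissue. As these are bulk samples, fewer cells of a type and less RNA per cell cannot be told apart in any value below.

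Over both injections acetate changed 4.16% of genes tested, of which 170 rose (1.15% of genes tested) and 443 fell (3.01%). All 613 had the same sign in both injection groups, and 0 had opposite signs. The test over both injections favours this, since opposite effects cancel in it, so the agreement is no separate support. Over all genes tested 55.4% had the same sign. In 353 of the 613 (2.39% of genes tested), 76 higher (0.516%) and 277 lower (1.88%), the unadjusted p was also below 0.05 in PBS-injected and in tau-injected mice taken separately. Of all genes tested 20.8% had such a p in PBS-injected and 10.9% in tau-injected mice. The call over both injections uses the same mice and favours this count, so it is no separate support. The changes were small. The median log2 fold change was -0.18 for the lower and 0.26 for the higher genes, against 0.01 over all genes tested, and 413 of the 443 lower genes changed by under 0.5 on the log2 scale. The lower genes were abundant ones, with a median of 117 CPM on the control diet against 33.6 CPM for the higher genes and 23.3 CPM for all genes.

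In 275 genes (1.87% of those tested) the 6 acetate mice did not overlap with the 6 control mice, 61 with acetate above (0.414%) and 214 with acetate below (1.45%). Among the called genes this held for 32 of 170 higher and 180 of 443 lower genes. In 458 genes (3.11%) 3 acetate mice lay apart from 3 control mice in the same direction within both injections, 51 of the higher and 250 of the lower genes among them. The choice of called genes on the same mice favours such separation, so their counts are no separate support. The number of calls rested on single mice. Leaving out 1 mouse gave between 121 and 844 calls, and the count moved by over 1.5 times without PBS-control mouse 1 (212), PBS-control mouse 3 (208), PBS-acetate mouse 1 (169), PBS-acetate mouse 2 (121), Tau-control mouse 3 (239) and Tau-acetate mouse 3 (144). All 613 genes kept their direction and an unadjusted p below 0.05 in all 12 of these fits, which their choice on the full set of mice favours.

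**Figure D1:**
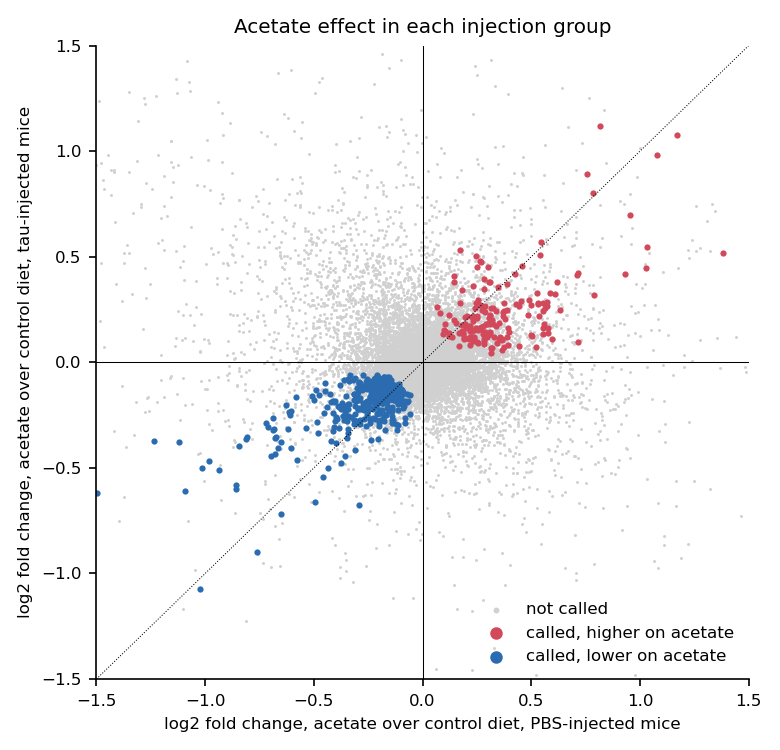
Log2 fold change of acetate over control diet in PBS-injected mice (x axis) and in tau-injected mice (y axis), 3 mice against 3 in each and 1 point a gene, with the genes called over both injections in red (higher) and blue (lower). The called genes lie at the upper right and lower left, which their choice over both injections favours, while the other genes spread in every direction. Outside the axes lie 101 genes, 6 of them called.

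The estimate was larger in PBS-injected than in tau-injected mice for 441 of the 613 genes. The median log2 fold change of the higher genes was 0.31 in PBS-injected and 0.21 in tau-injected mice, and that of the lower genes was -0.21 and -0.17. Tested within each injection, acetate changed 1303 genes in PBS-injected mice (8.84%) and 9 in tau-injected mice (0.0611%). These counts changed with the model, to 0 and 79 with 1 surrogate variable, 2 and 3 with the myelin score and 0 and 7 with the CA1 minus CA3 score described below as a covariate, and DESeq2 called 1387 genes in PBS-injected and 167 in tau-injected mice. With 1 mouse left out the first count ranged from 15 to 1425, and it moved by over 1.5 times without PBS-control mouse 1 (727), PBS-control mouse 3 (248), PBS-acetate mouse 1 (315) and PBS-acetate mouse 2 (15). The second ranged from 1, without Tau-control mouse 2 or 3, to 66, without Tau-acetate mouse 3, and moved by over 1.5 times in 9 of 12 fits. The 613 genes held 407 of the 1303, which is 31.2% of that list and 66.4% of the shared one, while 454 of the 1303 had the opposite sign in tau-injected mice. They held 4 of the 9 genes called in tau-injected mice, which is 0.653% of the shared list. An unadjusted p below 0.05 in PBS-injected mice was found for 153 of the 170 higher and 406 of the 443 lower genes. In tau-injected mice it was found for 93 and 314. The difference between the acetate effects was called for 230 genes (1.56%), and 4 of these were among the 613. This count ranged from 8, without PBS-acetate mouse 2, to 442, without Tau-acetate mouse 3, and moved by over 1.5 times in 8 of 12 fits.

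The injection groups share no mice, so genes chosen in one could be read in the other. Across all genes tested, the estimates had the same sign in 55.4%, and the correlation across genes was -0.14 (Pearson) and 0.04 (Spearman), a description only, since genes are not independent replicates. When the 6 PBS-injected mice were fitted alone, 1529 genes were called among 14288 tested in both sets. Of these 1529, 59.7% had the same sign in tau-injected mice, against 55.8% of all genes. At an unadjusted p below 0.05 in tau-injected mice, 199 (13.02%) went the same way and 108 (7.06%) the opposite way. Among all genes these shares were 5.82% and 3.996%. The Pearson correlation of the estimates was -0.31 across the 1529 genes and -0.13 across all 14288, again a description only. When the 6 tau-injected mice were fitted alone, 2 genes were called, both higher on acetate and both with a negative estimate in PBS-injected mice.

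A looser choice in tau-injected mice, an unadjusted p below 0.01, gave more genes to follow. Of 162 genes lower on acetate there, 88.3% were also lower in PBS-injected mice and 56.8% were lower at an unadjusted p below 0.05, against 55.0% and 14.0% of all genes with a negative estimate in tau-injected mice. Of 208 genes higher on acetate there, 32.2% were higher in PBS-injected mice, and 28.4% were lower in them at an unadjusted p below 0.05. Among all genes with a positive estimate in tau-injected mice these shares were 56.5% and 8.77%. The higher genes chosen in tau-injected mice thus mostly had the opposite sign in PBS-injected mice. The shares of lower and of higher genes were not tested against each other.

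Base composition moved with the diet. The median GC content of the transcript was 44.5% for lower genes, 53.9% for higher genes and 50.2% for all genes. Lower genes also had longer transcripts, with a median of 4023 bases against 3648.5 for higher and 3191 for all genes. Their 3' untranslated regions had a median of 2152.5 bases, against 1187 and 1196. In the GC-poorest 20% of genes 7.31% were called lower and 0.239% higher, and in the GC-richest 20% of genes 0.751% and 2.12%. The smooth GC trend of each library, read in the GC-richest 10% of genes, was between 0.00041 and 0.065 on the log2 scale in the 6 acetate mice and between -0.056 and -0.0057 in the 6 control mice, without overlap. In the GC-poorest 10% the diets overlapped, at -0.066 to 0.016 in acetate and -0.0047 to 0.043 in control mice. With the GC and length trend of each library removed, a choice made after the data were seen, 363 genes were called, 69 higher and 294 lower, and 293 of these were among the 613. Whether base composition or length has a part in the remaining calls was not tested.

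**Figure D2:**
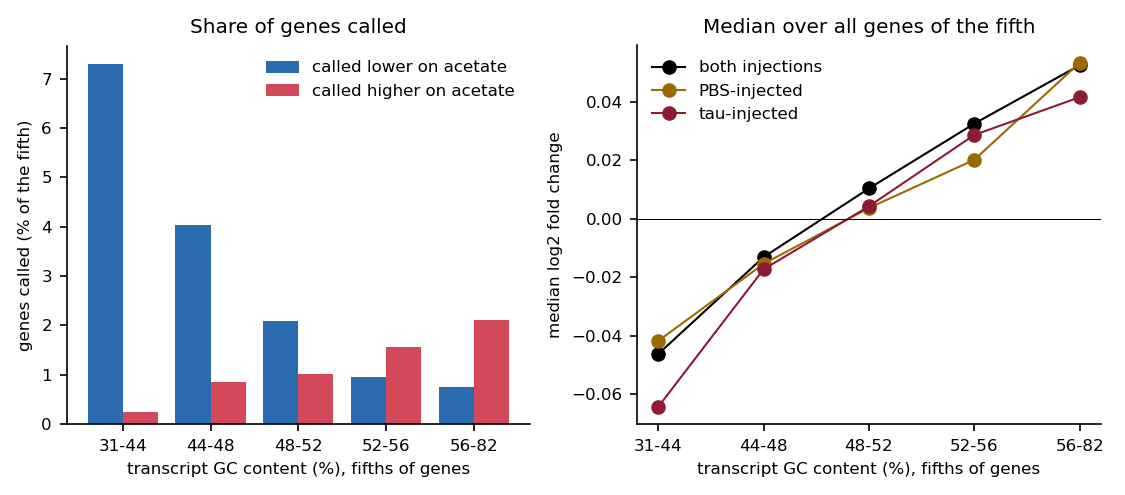
Left, percent of genes called lower (blue bars) and higher (red bars) on acetate in 5 equal bins of genes ordered by transcript GC content; right, median log2 fold change of all genes of each bin over both injections, in PBS-injected and in tau-injected mice. The share called lower runs from 7.31% in the GC-poorest bin to 0.751% in the GC-richest, and the medians over both injections run from -0.05 to 0.05.

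Markers of the hippocampal fields moved with the diet as well. A score was taken for each mouse as the mean log2 CPM of CA1 pyramidal cell markers, each from its 12-mouse mean, minus that of CA3 markers. It ran from -1.08 to -0.51 in PBS-control, 0.03 to 1.01 in PBS-acetate, -0.34 to 0.11 in Tau-control and -0.29 to 0.60 in Tau-acetate mice, so that the diets were apart in PBS-injected mice and overlapped in tau-injected mice. All 7 CA1 markers tested had a positive estimate over both injections, and 1 passed (14.3%, against 1.15% of all genes higher). This was Pou3f1 (a transcription factor), which rose by 0.47 on the log2 scale (SE 0.11, adjusted p = 0.0576). All 9 CA3 markers had a negative estimate, and 2 passed (22.2%, against 3.01% of all genes lower). These were Grik4 (a kainate receptor subunit) and Nectin3 (a cell adhesion molecule). At an unadjusted p below 0.05 there were 4 CA1 and 7 CA3 markers, and DESeq2 called 3 CA1 and 6 CA3 markers. Pou3f1 was called in 6 and Grik4 and Nectin3 in 5 of the 12 fits that left out a mouse. A further list of 8 markers of hippocampal neurons held 4 lower by edgeR (50%, against 3.01% of all genes) and 0 higher. These were Slc17a7, Neurod6, Snap25 and Syt1, and with 1 mouse left out 2 to 4 were lower. DESeq2 called 4 lower and 1 higher. Neurod6 ran from 268 to 352 CPM (median 314) on the control diet. On acetate it ran from 238 to 277 CPM (median 261), with overlap (adjusted p = 0.0271).

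Nectin3 stood at 57.3, 52.1 and 58 CPM in PBS-control, 24.7, 20.1 and 38.8 in PBS-acetate, 40.2, 42.8 and 48.8 in Tau-control and 37.2, 31.8 and 23.7 in Tau-acetate mice. The acetate mice lay below the control mice without overlap, and the log2 fold change was -0.76 (SE 0.18; adjusted p = 0.0665), with -1.01 in PBS-injected and -0.50 in tau-injected mice. With the CA1 minus CA3 score as a covariate edgeR called 0 genes over both injections, so that no gene named below passed, and no other tool was run with it. An unadjusted p below 0.05 was then left for 1383 genes, and 342 of the 613 were among these in their direction. The score is built in part on called genes, and the part of field composition in the results below was not tested further.

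Myelin, ependymal and choroid plexus markers had medians of opposite sign in the injections. Their median log2 fold changes were -0.52, -1.22 and -0.93 in PBS-injected mice and 0.52, 0.76 and 0.43 in tau-injected mice. Over both injections 0 of 22, 0 of 16 and 0 of 12 passed by edgeR and by DESeq2, and 0 had an unadjusted p below 0.05 by edgeR. The difference between the injections was called for 3, 7 and 1 of them. With the myelin score as a covariate 825 genes were called, 610 of the 613 among them. Of 14 microglial, 14 astrocyte and 19 type I interferon genes 0 passed by either tool, with 0, 3 and 0 genes at an unadjusted p below 0.05 by edgeR, all 3 higher. Thalamic markers stood high in PBS-control mouse 2 (a score of 1.55) and choroid plexus markers in Tau-acetate mouse 3 (1.70).

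**Figure D3:**
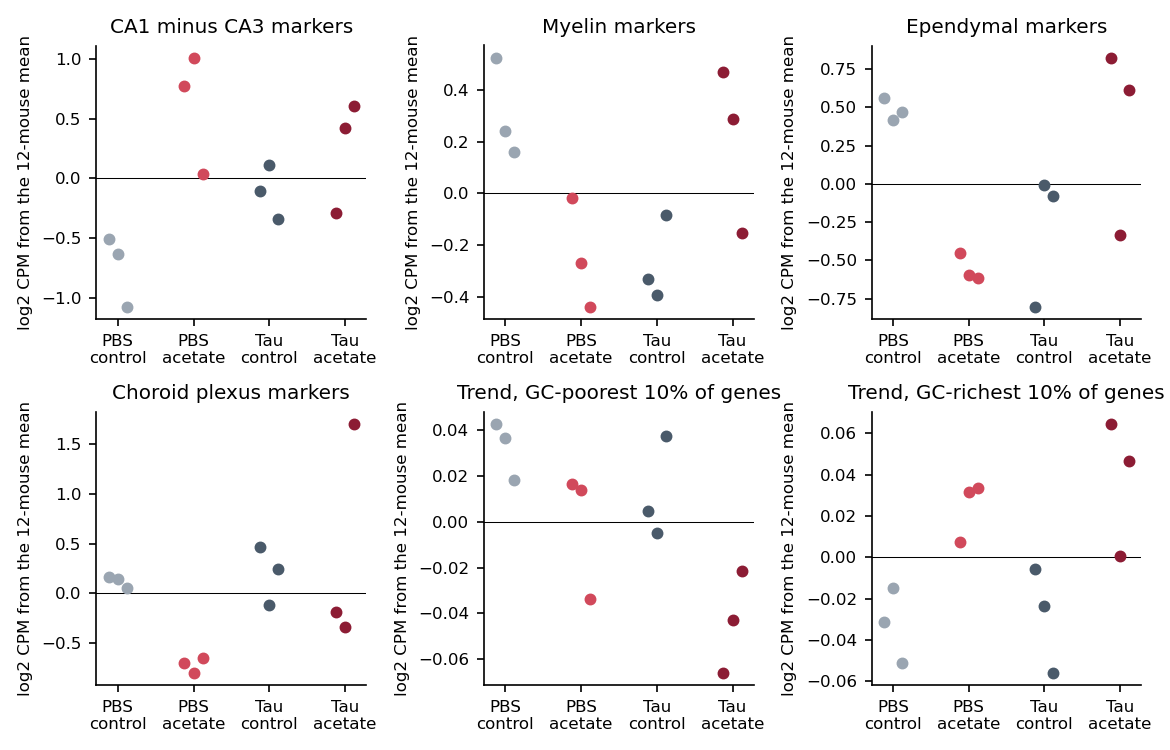
Mean log2 CPM of marker genes in each mouse (dots, by group of 3) as distance from the 12-mouse mean, in the first 4 panels, and the smooth GC trend of each library in the GC-poorest and GC-richest 10% of genes in the last 2. The CA1 minus CA3 score runs from -1.08 to -0.51 in PBS-control and from 0.03 to 1.01 in PBS-acetate mice, and the choroid plexus score is highest in Tau-acetate mouse 3, at 1.70.

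All gene lists here and below were chosen with earlier results of these data known, so the counts from them are a description. Among the lists of pathway genes drawn up for this tissue, heat shock proteins and chaperones held the most genes lower on acetate. These proteins fold new and damaged proteins, one set in the cytosol and another in the endoplasmic reticulum. The cytosolic set is induced by heat shock factors, which bind the heat shock element, a repeat of the letters GAA and TTC. Of 30 listed genes, all tested, 11 fell (36.7%, against 3.01% of all genes) and 0 rose, and 19 were lower at an unadjusted p below 0.05. The list's median log2 fold change was -0.16 over both injections, -0.23 in PBS-injected and -0.11 in tau-injected mice. With 1 mouse left out 4 to 16 passed, and the count moved by over 1.5 times without PBS-control mouse 1, PBS-control mouse 3, PBS-acetate mouse 2 or Tau-acetate mouse 3 (4 each), PBS-acetate mouse 1 (5) and Tau-control mouse 3 (6). With GC and length trends removed 9 passed.

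The promoter windows of 3 of these genes, Chordc1, Dnaja1 and Hsph1, are shown because they are chaperone genes without overlap between the diets whose windows hold the motif GAANNTTC. Each window runs from 250 bases before to 50 bases after a start annotated by RefSeq on GRCm38.p6, and capitals mark the motif, which reads the same on both strands. Chordc1 lies at chr9:18292017-18292316 on the plus strand, Dnaja1 at chr4:40722218-40722517 on the plus strand and Hsph1 at chr5:149636287-149636586 on the minus strand. Dnaja1 has a pair of further windows, from starts downstream, which hold no match, and Hsph1 has a second one that overlaps the first and holds the same match.
Chordc1: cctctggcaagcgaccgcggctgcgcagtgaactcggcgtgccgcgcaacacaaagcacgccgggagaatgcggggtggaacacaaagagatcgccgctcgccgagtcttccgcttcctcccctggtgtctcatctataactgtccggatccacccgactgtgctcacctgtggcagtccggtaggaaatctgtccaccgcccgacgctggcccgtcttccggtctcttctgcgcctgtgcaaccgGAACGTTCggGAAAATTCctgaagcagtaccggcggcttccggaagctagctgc
Dnaja1: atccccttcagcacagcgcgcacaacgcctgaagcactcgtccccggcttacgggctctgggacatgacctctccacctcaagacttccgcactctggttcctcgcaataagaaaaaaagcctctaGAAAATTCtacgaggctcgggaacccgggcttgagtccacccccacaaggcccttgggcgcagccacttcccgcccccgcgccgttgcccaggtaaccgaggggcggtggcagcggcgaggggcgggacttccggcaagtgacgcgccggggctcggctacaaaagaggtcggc
Hsph1: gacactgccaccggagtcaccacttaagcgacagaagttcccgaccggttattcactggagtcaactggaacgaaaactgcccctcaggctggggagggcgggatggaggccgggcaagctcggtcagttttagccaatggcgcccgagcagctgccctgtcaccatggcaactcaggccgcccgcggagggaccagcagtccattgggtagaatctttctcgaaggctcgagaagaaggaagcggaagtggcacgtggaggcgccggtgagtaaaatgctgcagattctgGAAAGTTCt
The motif was found in 7.86% of all 32851 windows, in 37.5% of the 32 windows of the tested list, in 5 of the 12 windows of its called members and in 7.56% of the windows of all genes called lower. A match is a run of letters and not a measured binding site.

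Chordc1, a co-chaperone of HSP90, stood at 73.3, 75.3 and 72.9 CPM in PBS-control, 61, 54.3 and 57.8 in PBS-acetate, 69, 66.8 and 80.3 in Tau-control and 59, 64.3 and 60.1 in Tau-acetate mice. Every acetate mouse was below every control mouse. The log2 fold change was -0.30 (SE 0.05, 6 against 6; adjusted p = 0.0113), with -0.36 in PBS-injected and -0.24 in tau-injected mice. Hsp90aa1, the stress-inducible cytosolic HSP90 (chromosome 12, 110690605 to 110702728, minus strand, GRCm38), ran from 409 to 451 CPM (median 422) on the control diet and from 355 to 391 CPM (median 371) on acetate, again without overlap. It fell by 0.19 on the log2 scale (SE 0.04; adjusted p = 0.0163).

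The partners of HSP70 went the same way. Dnaja1, a J-domain protein that delivers substrates to HSP70, ran from 122 to 148 CPM (median 134) on the control diet and from 107 to 121 CPM (median 113) on acetate. It fell by 0.23 (SE 0.04; adjusted p = 0.0163). Hsph1 (HSP110), a nucleotide exchange factor for HSP70, ran from 373 to 417 CPM (median 392) on the control diet and from 315 to 359 CPM (median 347) on acetate and fell by 0.20 (SE 0.04; adjusted p = 0.0219). In neither gene did the diets overlap. Hspa8, the constitutive HSP70, ran from 528 to 573 CPM (median 551) on the control diet and from 461 to 543 CPM (median 481) on acetate, with overlap, and fell by 0.16 (adjusted p = 0.0436); its many processed copies in the genome make its count uncertain. Hspa4, of the HSP110 family, and Hspd1, the mitochondrial HSP60, each fell by 0.14 (adjusted p of 0.0455 and 0.0619).

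Among members of the endoplasmic reticulum, Manf fell by 0.28, Pdia4 by 0.27, Calr (calreticulin) by 0.17 and Hsp90b1 by 0.17, with adjusted p from 0.0436 to 0.0609 and overlap between the diets in all 4. Hspa5 (BiP), the HSP70 of that compartment, did not pass, at -0.30 (SE 0.09; adjusted p = 0.131). The heat-inducible Hspa1b did not pass by edgeR, at -0.33 (SE 0.11; adjusted p = 0.141), but passed by DESeq2 (adjusted p = 0.0975), in the model of 4 group means (0.0907) and with thinned counts (0.0941). It is nearly identical to Hspa1a, so that reads of the pair are uncertain. The cytosolic chaperonin TRiC, a family picked with results of these data known, had 2 of 8 genes lower (25%, against 3.01% of all genes), Cct6a and Cct8, and 0 higher. In this family 0 genes were lower without PBS-acetate mouse 1 or 2 or Tau-acetate mouse 3.

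**Figure D4:**
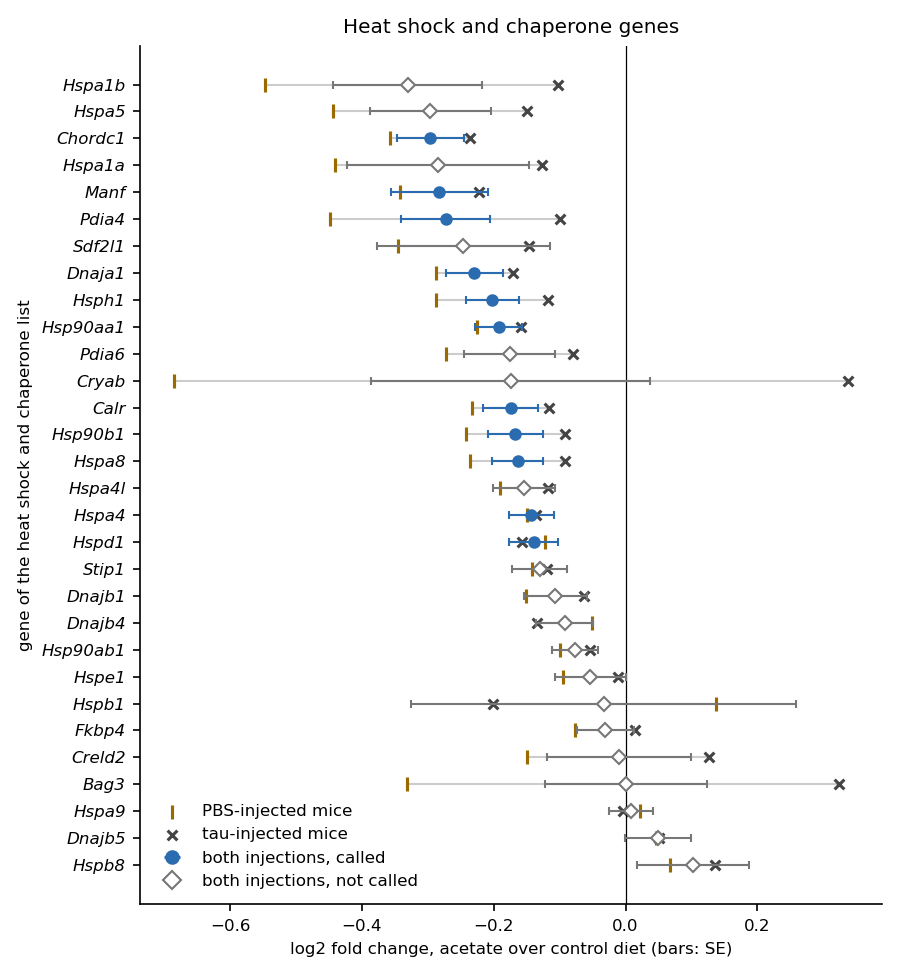
Log2 fold change of acetate over control diet for the 30 heat shock and chaperone genes over both injections (filled circles, called; open diamonds, not called; bars, SE), with the estimates in PBS-injected mice (vertical ticks) and in tau-injected mice (crosses). The 11 called genes lie below 0 in both injections and between -0.30 and -0.14 over both.

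Genes of the presynaptic vesicle cycle were the family with the most genes that fell. Vesicles are filled with transmitter, docked at the active zone, fused by SNARE proteins and retrieved by endocytosis. The list was drawn up after results of these data were known, so its count is a description. By edgeR 21 of 48 genes fell (43.8%, against 3.01% of all genes) and 0 rose, with 2 higher at an unadjusted p below 0.05, while DESeq2 called 28 lower and 1 higher. The median over its members was -0.13 on the log2 scale over both injections, -0.13 in PBS-injected and -0.12 in tau-injected mice. Its largest change was a rise of 0.44 in Syt2, which edgeR did not call. With 1 mouse left out 10 to 24 were lower, and the count moved by over 1.5 times without PBS-control mouse 1 (12), PBS-acetate mouse 1 (13), PBS-acetate mouse 2 (10) and Tau-acetate mouse 3 (11). With GC and length trends removed 23 fell.

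Snap25, a membrane SNARE of the fusion machinery (chromosome 2, 136713453 to 136782428, plus strand), stood at 2775, 2544 and 2929 CPM in PBS-control, 2038, 1866 and 2341 in PBS-acetate, 2470, 2504 and 2545 in Tau-control and 2211, 2080 and 1902 in Tau-acetate mice. No acetate mouse reached the lowest control mouse. The log2 fold change was -0.34 (SE 0.05; adjusted p = 0.00953), with -0.40 in PBS-injected and -0.28 in tau-injected mice. Syt1 (synaptotagmin 1), the calcium sensor of fusion, ran from 1698 to 1878 CPM (median 1783) on the control diet and from 1517 to 1669 CPM (median 1609) on acetate and fell by 0.16 (adjusted p = 0.035), without overlap. Napb and Napg, which help to take used SNARE complexes apart, fell by 0.18 and 0.16, and the complexin Cplx1, which clamps the SNARE complex, by 0.16.

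Of the active zone scaffolds, Rims1 fell by 0.31, Bsn (bassoon) by 0.29, Erc2 by 0.19 and Pclo (piccolo) by 0.18, with adjusted p from 0.0284 to 0.0611. The diets overlapped in each of these scaffolds. Vesicle proteins included Syn2 and Syn1, synapsins that hold vesicles in the reserve pool, which fell by 0.30 and 0.18, and Sv2b, which fell by 0.33. In these 3 the diets did not overlap. Slc17a7 fell by 0.17 with overlap (adjusted p = 0.0879).

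Genes of vesicle retrieval were among the 21 as well. Sh3gl2 (endophilin A1), which bends the membrane of forming vesicles, ran from 361 to 426 CPM (median 390.3) on the control diet and from 289.9 to 344 CPM (median 325) on acetate and fell by 0.29 (SE 0.05; adjusted p = 0.00953). Dnajc6 (auxilin), which strips clathrin from vesicles with HSP70, fell by 0.29 (SE 0.05; adjusted p = 0.00953), and Snap91 (AP180), a clathrin adaptor, fell by 0.26 (adjusted p = 0.0163). The diets did not overlap in any of the 3. Dnm1 (dynamin 1), the GTPase that cuts vesicles from the membrane, fell by 0.16 with overlap (adjusted p = 0.0926).

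The 12 lower genes with the smallest p included Pgm2l1, Rnf11, Cd200, Mtpn, Cdk14, Kcnv1, Fam19a1, Luzp2, Dr1, Fstl5 and Rab11a. In each of these every acetate mouse was below every control mouse, a separation that 1.45% of genes tested showed in that direction. Each was also called in all 12 fits that left out a mouse. Their choice by the smallest p on the same mice favours both, so neither is separate support. Pgm2l1, which makes glucose 1,6-bisphosphate in brain (chromosome 7, 100227394 to 100278868, plus strand), stood at 710.1, 633 and 686 CPM in PBS-control, 537, 502 and 560.5 in PBS-acetate, 586, 659 and 683 in Tau-control and 539.8, 518 and 471 in Tau-acetate mice. The log2 fold change was -0.34 (SE 0.05; adjusted p = 0.00952), and it was -0.34 in both PBS-injected and tau-injected mice.

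Cd200, a neuronal membrane protein that restrains microglia through their CD200 receptor (chromosome 16, 45382135 to 45409053, minus strand), ran from 63.8 to 71.4 CPM (median 66.8) on the control diet and from 50.4 to 58.7 CPM (median 55.8) on acetate. It fell by 0.30 on the log2 scale (SE 0.04; adjusted p = 0.00952). Fstl5, a secreted follistatin-like protein, had the largest change of these. It ran from 29 to 39.9 CPM (median 33.5) on the control diet and from 19.6 to 26.4 CPM (median 23.4) on acetate, with -0.67 in PBS-injected and -0.40 in tau-injected mice. The other genes named here fell by 0.21 (Mtpn, an actin capping protein regulator) to 0.40 (Kcnv1, a potassium channel subunit).

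**Figure D5:**
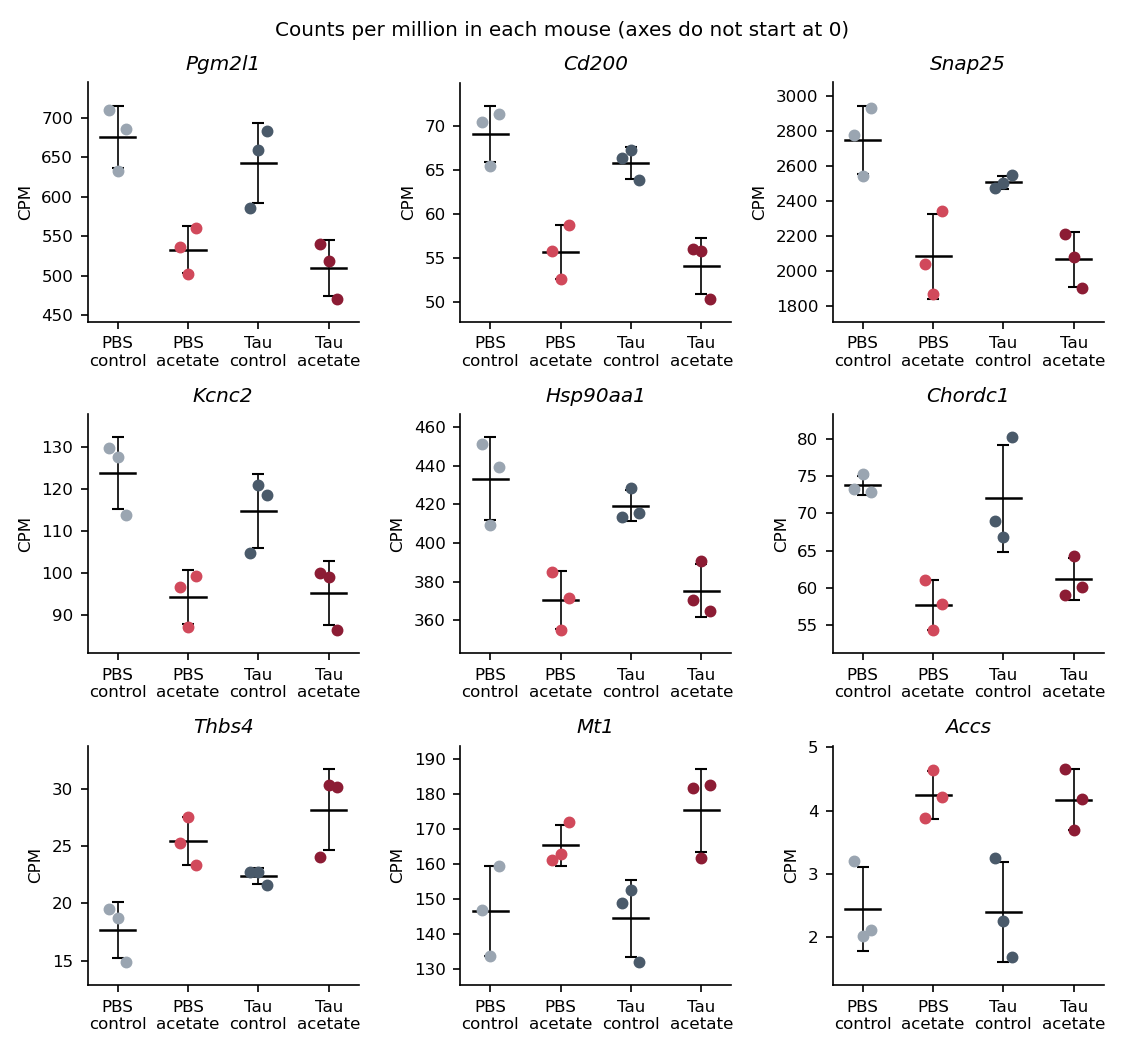
CPM of 9 genes in each of the 12 mice (dots) by group of 3, with the group mean (line) and SD (bars); the axes do not start at 0. In Pgm2l1, Cd200, Snap25, Kcnc2, Hsp90aa1 and Chordc1 all 6 acetate mice lie below the 6 control mice, and in Thbs4, Mt1 and Accs all 6 lie above.

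Ion channel genes moved in both directions. Of 30 potassium channel genes 4 fell (13.3%, against 3.01% of all genes), Kcnv1, Kcnc2, Kcnc1 and Kcna1, and 1 rose (3.33%, against 1.15%), Kcnh7. DESeq2 called 6 lower and 4 higher, and the list's median was 0.04. Kcnc2, a Kv3 channel subunit of fast-spiking neurons, ran from 105 to 129.6 CPM (median 119.8) on the control diet and from 86.5 to 100.0 CPM (median 97.9) on acetate, without overlap, and fell by 0.33 (SE 0.05; adjusted p = 0.00953). Kcnv1, a modifier subunit that forms no channel alone, ran from 58.8 to 68.1 CPM (median 62.7) on the control diet and from 42.2 to 55.8 CPM (median 47.3) on acetate and fell by 0.40 (SE 0.06; adjusted p = 0.00953). Kcnh7, an ERG channel, rose by 0.67 (SE 0.15; adjusted p = 0.0562), from a median of 17.2 to 26.9 CPM, and overlapped between diets. With 1 mouse left out, 2 to 7 of the list were lower, 2 without any 1 of PBS-control mice 1, 2 and 3, PBS-acetate mice 1 and 2, Tau-control mouse 3 and Tau-acetate mouse 3 and 7 without Tau-control mouse 1, and 0 to 5 were higher. Kcnc2 and Kcnv1 were called in all 12 fits.

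Receptors and kinases of synaptic plasticity divided too. Of 22 ionotropic glutamate receptor and auxiliary genes 2 fell (9.09%, against 3.01% of all genes). Grik4 fell by 0.42 and Cacng2 (stargazin, which brings AMPA receptors to synapses) by 0.17. By edgeR 0 rose, with 3 higher at an unadjusted p below 0.05, and DESeq2 called 2 lower and 3 higher. Of 28 kinase and scaffold genes 2 fell and 2 rose (7.14% each, against 3.01% and 1.15% of all genes). Camk4, a nuclear calcium-dependent kinase, fell by 0.35 (adjusted p = 0.0744) and Ppp3cb, a catalytic subunit of calcineurin, by 0.17 (adjusted p = 0.0271). Itpka, an inositol trisphosphate kinase of dendritic spines, ran from 224 to 315 CPM (median 247) on the control diet and from 276 to 372 CPM (median 343) on acetate and rose by 0.37 (adjusted p = 0.0735), with 0.58 in PBS-injected and 0.16 in tau-injected mice. Camk2g rose by 0.18 (adjusted p = 0.0748). Of these 6 genes only Ppp3cb was called in all 12 fits that left out a mouse, Itpka in 3 and the others in 4 or 5.

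Activity-induced and chromatin genes were read against 4.16% of all genes called and 16.7% at an unadjusted p below 0.05. Of 26 immediate early genes, which neurons induce on activity, edgeR called 0 and DESeq2 1, lower on acetate, and 1 was higher and 2 lower at an unadjusted p below 0.05 by edgeR. Of 29 histone acetyltransferase and deacetylase genes 0 passed by either tool, with 3 higher and 1 lower at an unadjusted p below 0.05.

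Families of protein traffic and turnover held many genes that fell by small amounts. These families were also picked with results of these data known. Of 6 genes of 14-3-3 proteins, adaptors that bind phosphorylated partners, 4 fell (66.7%, against 3.01% of all genes), Ywhah by 0.26, Ywhag by 0.20, Ywhaz by 0.19 and Ywhab by 0.15. Ywhag ran from 1253 to 1407 CPM (median 1335) on the control diet and from 1070 to 1249 CPM (median 1168) on acetate, without overlap (adjusted p = 0.0338). The count of 4 fell to 2 without PBS-acetate mouse 2 or Tau-acetate mouse 3.

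Of 33 ubiquitin-conjugating enzymes, which hand ubiquitin to its targets, 11 fell (33.3%, against 3.01% of all genes) and 0 rose by edgeR and by DESeq2. Ube2v2 had the largest change of the 11, -0.22 (SE 0.05; adjusted p = 0.0347), and Ube2n, its partner in building chains, fell by 0.14. The count was 0 without PBS-acetate mouse 1, 1 without PBS-acetate mouse 2, 2 without Tau-acetate mouse 3, 3 without PBS-control mouse 1, 5 without PBS-control mouse 3 or Tau-control mouse 3 and 6 without Tau-control mouse 1, and with GC and length trends removed it was 4. Of 48 proteasome subunits 1 fell (2.08%, near the 3.01% of all genes), Psmd5, by 0.16, called in 5 of the 12 fits. The largest change among these subunits was a rise of 0.52 in Psmb9, which was not called.

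Of 54 Rab GTPases, which direct vesicle traffic, 9 fell (16.7%, against 3.01% of all genes) and 1 rose (1.85%, against 1.15%), Rab43, by 0.26. Rab11a, of recycling endosomes, ran from 108 to 117 CPM (median 111) on the control diet and from 87.8 to 101 CPM (median 95.2) on acetate and fell by 0.24 (SE 0.04; adjusted p = 0.00953). Rab6b and Rab6a, of Golgi traffic, each fell by 0.16. Of 19 subunits of the vacuolar ATPase, which acidifies vesicles and lysosomes, 5 fell (26.3%, against 3.01%), Atp6ap2 the most, by 0.21 (SE 0.04; adjusted p = 0.0164). Of 19 importins and exportins, carriers through the nuclear pore, 5 fell (26.3%, against 3.01%), among them Kpna3 by 0.18 and Xpo1 by 0.17. Without single mice these 3 counts of lower genes fell as far as 2, 1 and 1, all 3 of them without PBS-acetate mouse 2 and without Tau-acetate mouse 3. They also moved by over 1.5 times without PBS-control mouse 1 (4, 2 and 2), PBS-control mouse 3 (3, 1 and 3) and PBS-acetate mouse 1 (3, 1 and 1), and the last 2 counts without Tau-control mouse 1 (3 and 3) or 3 (2 and 3) and the last without Tau-acetate mouse 1 (3). With GC and length trends removed they were 4, 4 and 0.

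Among genes of acetate use, parts of 1 enzyme complex fell. Acss2, which makes acetyl-CoA from acetate, ran from 52.3 to 61.7 CPM (median 55.6) on the control diet and from 50.5 to 57.7 CPM (median 53.1) on acetate, with overlap, and did not pass at -0.06 (SE 0.05; adjusted p = 0.578). Of 27 genes of acetate and acetyl-CoA metabolism 3 fell (11.1%, against 3.01% of all genes) and 0 rose by edgeR and by DESeq2. All 3 encode parts of the pyruvate dehydrogenase complex, which makes acetyl-CoA from pyruvate in mitochondria. Pdha1 ran from 261 to 283 CPM (median 274) on the control diet and from 244 to 260.2 CPM (median 256) on acetate, without overlap, and fell by 0.11 (adjusted p = 0.0913). Pdhb fell by 0.13, also without overlap, and Dlat by 0.17 (adjusted p of 0.0915 and 0.071). The 3 calls became 0 without PBS-control mouse 1 or 3, PBS-acetate mouse 1 or 2, Tau-control mouse 3 or Tau-acetate mouse 3, became 1 without Tau-control mouse 1 or Tau-acetate mouse 1, and became 1 with GC and length trends removed.

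Among 33 genes of fatty acid and cholesterol synthesis 3 fell (9.09%, against 3.01% of all genes) and 0 rose by edgeR, with 2 higher at an unadjusted p below 0.05, while DESeq2 called 5 lower and 1 higher. Sqle (squalene epoxidase, of cholesterol synthesis) ran from 57 to 72.8 CPM (median 65.3) on the control diet and from 49.5 to 58.5 CPM (median 51.4) on acetate and fell by 0.29 (SE 0.06; adjusted p = 0.0271), with a like estimate in PBS-injected (-0.31) and tau-injected mice (-0.27). It was called in all 12 fits that left out a mouse. Me1 (malic enzyme, a source of NADPH) and Elovl6 (a fatty acid elongase) fell by 0.29 and 0.20 (adjusted p of 0.0645 and 0.0797) and were called in 5 and 4 of these fits. Of 35 subunits of oxidative phosphorylation 1 fell, Uqcrb (2.86%, near the 3.01% of all genes), and of 34 cytosolic ribosomal proteins 1 rose, Rps14 (2.94%, against 1.15%), and these were called in 1 and 4 of the 12 fits.

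The 12 higher genes with the smallest p were Arhgef10l, Thbs4, Erf, Astn2, Pcdhga2, Accs, Ebf4, Iqgap2, Mtcl1, Cntnap5a, Tmem132d and Susd1. Arhgef10l, a guanine nucleotide exchange factor (chromosome 4, 140514485 to 140666012, minus strand), ran from 29.8 to 38.9 CPM (median 34.4) on the control diet and from 38.6 to 47.6 CPM (median 44.6) on acetate, a rise of 0.38 on the log2 scale (SE 0.07; adjusted p = 0.0163). Its estimate was 0.30 in PBS-injected and 0.45 in tau-injected mice, and the lowest acetate mouse lay just below the highest control mouse. Thbs4, an astrocyte thrombospondin that promotes synapse formation (chromosome 13, 92751590 to 92794818, minus strand), stood at 19.5, 18.7 and 14.9 CPM in PBS-control, 25.3, 27.6 and 23.4 in PBS-acetate, 22.8, 22.7 and 21.6 in Tau-control and 24.1, 30.3 and 30.2 in Tau-acetate mice. All 6 acetate mice were above the 6 control mice, a separation seen upward in 0.414% of genes tested. The choice of genes by the smallest p favours such a separation. The log2 fold change of Thbs4 was 0.42 (SE 0.08, adjusted p = 0.0163).

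Of the others, Erf (a transcriptional repressor of the ETS family) rose by 0.24, Astn2 (astrotactin 2, of neuronal migration) by 0.37, Iqgap2 (a cytoskeletal scaffold) by 0.26 and Mtcl1 (a microtubule crosslinking factor) by 0.29. Accs was the least abundant of the 12, at from 1.68 to 3.25 CPM (median 2.18) on the control diet and from 3.69 to 4.66 CPM (median 4.2) on acetate, and rose by 0.79, with 0.78 in PBS-injected and 0.80 in tau-injected mice. Pcdhga2 is 1 of 3 gamma protocadherins that rose among 22 tested (13.6%, against 1.15% of all genes), a family picked with results known. With 1 mouse left out the count fell as far as 1. Pcdhga8 and Pcdhga11 were called in 4 and 1 of the 12 such fits. Gamma protocadherin genes share exons, so reads may be split between them and their counts are uncertain. Cntnap5a, Tmem132d and Susd1 were each called in 11 of the 12 fits that left out a mouse and the other 9 in all.

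Metallothioneins, a family also picked with results known, were among the genes that rose. Mt1 and Mt2, which bind zinc and copper and are induced by metals and glucocorticoids, were called. They are 2 of 3 family members tested (66.7%, against 1.15% of all genes). Mt1 ran from 132 to 159 CPM (median 148) on the control diet and from 161 to 183 CPM (median 167) on acetate, without overlap, and rose by 0.23 (SE 0.05; adjusted p = 0.0338), with 0.17 in PBS-injected and 0.28 in tau-injected mice. Mt2 ran from 73.2 to 88.9 CPM (median 78.1) on the control diet and from 84.2 to 109 CPM (median 94.2) on acetate, with overlap, and rose by 0.26 (SE 0.06; adjusted p = 0.0411). Both passed with GC and length trends removed, and 1 of the 2 was lost without PBS-control mouse 3, Tau-control mouse 3 or Tau-acetate mouse 3.

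Both are also on a list of 23 glucocorticoid and FoxO targets tested, of which 5 rose (21.7%, against 1.15% of all genes) and 0 fell. The median of this list was 0.10 on the log2 scale. The others were Per1, Ddit4 (REDD1, an inhibitor of mTOR), which rose by 0.23 (adjusted p = 0.0532), and Txnip (which binds thioredoxin), which rose by 0.25 (adjusted p = 0.0959). The count was 1 without PBS-control mouse 3, 2 without PBS-control mouse 1, PBS-acetate mouse 1 or 2, Tau-control mouse 3 or Tau-acetate mouse 3, and 2 with GC and length trends removed.

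Of 24 circadian clock genes 3 rose (12.5%, against 1.15% of all genes), Per1, Dbp and Bhlhe41, and 0 fell by edgeR and by DESeq2, which called 6 higher. Per1 and Bhlhe41 are repressors of the clock's activators CLOCK and BMAL1, which bind the E-box CACGTG, and Dbp is a transcription factor driven by them. The promoter windows of Per1 (chr11:69098699-69098998, plus strand) and Bhlhe41 (chr6:145865371-145865670, minus strand) are shown because they hold this motif, in capitals, which also reads the same on both strands. A further window of Per1 (chr11:69099902-69100201) and the window of Dbp hold no match.
Per1: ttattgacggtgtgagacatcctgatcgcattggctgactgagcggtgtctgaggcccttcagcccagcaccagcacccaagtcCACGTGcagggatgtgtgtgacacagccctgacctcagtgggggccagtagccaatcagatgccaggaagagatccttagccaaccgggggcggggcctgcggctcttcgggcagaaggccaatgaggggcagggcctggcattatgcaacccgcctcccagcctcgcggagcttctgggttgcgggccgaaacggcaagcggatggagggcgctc
Bhlhe41: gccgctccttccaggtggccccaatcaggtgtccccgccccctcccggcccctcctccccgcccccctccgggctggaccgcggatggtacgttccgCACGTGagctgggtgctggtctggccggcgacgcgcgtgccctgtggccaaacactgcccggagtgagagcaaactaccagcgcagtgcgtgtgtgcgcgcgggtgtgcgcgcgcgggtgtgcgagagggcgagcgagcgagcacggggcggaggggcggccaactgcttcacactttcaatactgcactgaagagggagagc
The E-box was found in 7.15% of all windows, in 20.7% of the 29 windows of the tested clock list, in 8.43% of those of genes called higher and in 8.67% of those of genes called lower.

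Bhlhe41 ran from 53.7 to 67.6 CPM (median 58.9) on the control diet and from 64.7 to 75.3 CPM (median 72.4) on acetate, with overlap, and rose by 0.26 (SE 0.06; adjusted p = 0.0344), with 0.28 in PBS-injected and 0.25 in tau-injected mice. For Per1 the difference between injections passed its test, and for Dbp it did not (adjusted p = 0.48). Per1 rose by 0.36 (adjusted p = 0.0576), with 0.58 in PBS-injected and 0.14 in tau-injected mice, and Dbp rose by 0.44 (adjusted p = 0.0865), with 0.63 and 0.25. The count of 3 fell to 0 without PBS-acetate mouse 2 or Tau-acetate mouse 3 and to 1 without PBS-control mouse 1 or 3 or PBS-acetate mouse 1, rose to 5 and 6 without Tau-acetate mice 1 and 2, and was 1 with GC and length trends removed. The time of day of collection is not given in the sources used here.

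The largest changes were mostly in genes of low level. The 5 largest rises were in Wnt3a (1.56), Ly6g6e (1.53), Nanos2 (1.28), Gm16287 (1.19) and Inmt (1.13), all with medians under 2 CPM in either diet. These 5 were not called by DESeq2's Wald test or with 1 surrogate variable. Ly6g6e was the only 1 of 7 subiculum markers to pass (14.3%, against 1.15% of all genes). Their score ran from -0.64 to -0.14 in PBS-control and -0.12 to 1.02 in PBS-acetate mice. In Tau-control mice it ran from -0.51 to 0.24 and in Tau-acetate mice from -0.39 to 0.48. Wnt3a, a Wnt ligand, ran from 0.0677 to 0.582 CPM (median 0.148) on the control diet and from 0.347 to 1.19 CPM (median 0.779) on acetate, with overlap. Its control median lay below the 0.231 CPM that 3 counts make in the smallest library. The largest falls included C4bp (-1.57), 2900040C04Rik (-1.54), Frem3 (-1.05) and Popdc3 (-0.84), of which C4bp and 2900040C04Rik were not called by DESeq2 either. Popdc3 was the most stable of these 9, called in 10 of 12 fits that left out a mouse, and the others were called in 1 to 7. Of larger changes in better expressed genes, Mylk (myosin light chain kinase) ran from 24.2 to 35.8 CPM (median 29.9) on the control diet and from 17 to 24.1 CPM (median 19.1) on acetate, without overlap, and fell by 0.58 (SE 0.10; adjusted p = 0.0163). It was the only 1 of 13 mural and smooth muscle markers to pass, and the list's median was 0.14.

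The threshold fell within a continuous run of values. Just inside it lay Rasal2, Med19 and Zscan18, with log2 fold changes of 0.15, -0.16 and 0.22, and just outside it Krba1, Atad2 and Furin, with 0.23, -0.30 and -0.15.

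Few of the shared genes had unequal responses by the test of the difference between the injections. Among the 613 genes, 4 (0.653%) passed it, against 1.56% of all genes tested. A call over both injections disfavours such a difference, so this low share is no result of its own. All 4 rose more in PBS-injected mice. Icam5 (telencephalin, a dendritic adhesion molecule) ran from 329 to 396 CPM (median 356) on the control diet and from 380.3 to 441 CPM (median 405) on acetate, with 0.32 in PBS-injected and 0.04 in tau-injected mice. Car11, a carbonic anhydrase-related protein, had 0.37 and 0.06, Per1 0.58 and 0.14, and Ccdc88c, a regulator of Wnt signalling, 0.60 and 0.11. In all 4 the diets were apart in PBS-injected mice and overlapped in tau-injected mice.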

How the data were processed

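The authors extracted RNA from the injected hippocampus of 12 mice, prepared poly(A)-selected libraries, aligned reads with STAR 2.5.2a (per the labels' processing notes) to GRCm38 and counted reads per gene with HTSeq. The deposited values are raw counts, with no normalization, for 24985 genes; 5357 were at 0 in all libraries. Genes with too few counts were removed (filterByExpr by the 4 groups, minimum count 10, minimum total 15), which left 14742. Counts were scaled by TMM and tested with edgeR 4.0.16 (robust quasi-likelihood F test) for diet with the injection as covariate, with 9 residual degrees of freedom. Effects within each injection and their difference came from a model of the 4 group means, with 8. Adjusted p-values are Benjamini-Hochberg over all genes tested, the threshold was 0.1, and SE is the log2 fold change over the root of F. The common biological coefficient of variation was 7.25%. On simulated counts for this comparison with 14628 genes, 94% of changes of 1 and 74% of changes of 0.5 on the log2 scale were recovered. Of 187 calls 19 were false. Smaller changes, which most called genes had, were not simulated, nor were shifts in composition or GC trend shared by many genes. Recovery in those cases is therefore not known.

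Alternatives used DESeq2 1.42.0, sva 3.50.0 and mgcv 1.9.3 in R 4.3.3. Coordinates, GC content and lengths are from GENCODE M21 and promoters from RefSeq, both on GRCm38. The RefSeq table had no entry used here for Hspa8, Hsp90aa1 or Manf. Genes named were, in each direction, the 12 with the smallest p and the 5 with the largest change, and the 3 on each side of the threshold. Called members of each list and called genes whose effects differed between injections were named too. The largest change of a list was taken by rule only outside the families picked with results known. Hspa5, Syt2 and Psmb9 were added after their values were seen. A few genes that this rule selects are not reported here. The members and lists were chosen with earlier results of these data known. Animals are taken as replicates from the labels.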

Additional observations from a re-analysis of the deposited data

Results flagged for a closer look

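Among the 24 genes with the smallest p, 48 groups of 6 mice of 1 diet were examined for a mouse that stands apart, and 1 was found, while chance gives about 1 in 20. PBS-control mouse 1 had 182 CPM of Luzp2 (a leucine zipper protein), and the other control mice had 156 to 160 CPM.

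Of the shared genes, 4 had acetate effects that differed between the injections by a test of the difference itself (tau minus PBS, log2 scale). The difference was -0.309 for Car11, -0.436 for Per1, -0.272 for Icam5 and -0.485 for Ccdc88c, with adjusted p of 0.0866, 0.0917, 0.0839 and 0.0755. Against this, 1.56% of all genes tested passed that test.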

How the results depend on the processing

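The counts depended on the processing more than the directions did: all 613 genes kept their direction under DESeq2 size factors (633 calls), no filter, DESeq2's Wald test, the replicate block, each covariate, 1 surrogate variable, the model of 4 group means and the removal of GC and length trends, as did the 612 retested after thinning to the smallest library. Without a filter on low counts 282 genes were lower (441 in all) and 56 were called in tau-injected mice. DESeq2's Wald test called 991 genes, 317 higher and 674 lower, 989 with the same sign in both injections, 167 in tau-injected mice and 472 for the difference. At an adjusted p below 0.05, 241 genes were called, 41 higher and 200 lower, all 241 of the same sign and 220 also at an unadjusted p below 0.05 in each injection, with 541 in PBS-injected mice, 3 in tau-injected mice and 43 for the difference. With the CA1 minus CA3 score as a covariate 0 genes were called over both injections (higher, lower, of the same sign, or also in each injection), 0 chaperones and 0 genes in PBS-injected mice, with 4 for the difference and 1383 at an unadjusted p below 0.05. With the myelin score 825 were called, 273 higher, 98 also in each injection, 2 in PBS-injected mice, 3 in tau-injected mice and 4 for the difference. With 1 surrogate variable 377 were called, 87 higher and 290 lower, all 377 of the same sign and 216 also in each injection, with 0 in PBS-injected mice, 79 in tau-injected mice and 5 for the difference. The model of 4 group means called 849, 288 of them higher. With GC and length trends removed, added after the data were seen, 363 were called, 69 higher and 294 lower, all 363 of the same sign, with 4 in tau-injected mice. The cause of these changes was not tested.

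With 1 mouse left out the count ranged from 121 to 844 over both injections and for genes of the same sign, from 13 to 290 for higher, 108 to 581 for lower and 113 to 370 for genes also passing in each injection. It ranged from 15 to 1425 in PBS-injected mice, 1 to 66 in tau-injected mice, 8 to 442 for the difference and 4 to 16 for chaperones. Between 119 and 525 of the 613 calls were kept.

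Mice of different groups share replicate numbers, but same-numbered mice did not deviate together (18 correlations of -0.105 to 0.144), and 3 of 12 correlated best with their own number, so they were not taken as paired. A replicate block gave 412 calls, 101 of them higher, and 349 for the difference.

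Among named genes, 8 estimates changed sign, all in genes that were not called. With the CA1 minus CA3 score these were Ugt8a (0.23), Spag17 (0.55), Amigo2 (0.14), Nts (-0.59), Tshz2 (-0.57), Sst (-0.013) and Trp73 (0.41), and with 1 surrogate variable Trp73 (0.054).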
